A study of Mus musculus with 64 samples.

Results

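Whole blood is 1 of the 4 tissues in a study of chronic stress in mice, and its table was analysed here alone: 16 of the 64 libraries of the series, taken as the 7 control and 9 stressed columns of the blood table, with 8830 genes. All libraries came from male BALB/c mice aged 28 weeks. The 7 control animals were not stressed. The 9 UCMS animals went through Unpredictable Chronic Mild Stress for 9 weeks, a schedule of changing mild stressors used to model major depressive disorder. Trunk blood was taken 14 to 16 hours after the last stressor, at ZT12.5 to ZT14.5, that is, by the clock of the light cycle. RNA came from unseparated blood, and strand-keeping libraries were prepared from 100 ng of RNA depleted of ribosomal RNA. The titles give each library an animal of its own. UCMS replicates 8 and 9 carry animal numbers that start with BS, as no control number does, and the labels do not say what BS marks.

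Blood RNA mixes cells of very different kinds. Red cells and platelets have no nucleus and carry RNA from their precursors in bone marrow: reticulocytes, the youngest red cells, still hold transcripts for globin, heme synthesis and membrane proteins, and platelets hold transcripts of the megakaryocytes that shed them. The nucleated cells are mainly neutrophils, monocytes and lymphocytes, which move between blood and tissues under glucocorticoids and catecholamines, the hormones of the stress response.

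Values were log2 levels whose distribution had been made equal between the 16 libraries, so each level is relative to the other RNA of its library, and sequencing depth is unknown. Of 32 symbols fixed as markers of blood cell types, 30 were in the table; Siglecf and Mcpt8 were not analysed here. Of 57 symbols typical of other tissues (brain, liver, muscle, endothelium, fibroblasts and skin), 12 were in the table and 8 were tested, of which 1 had a higher mean in UCMS. The median correlation of a library with the other 15 was 0.849 for control replicate 2 and 0.881 for UCMS replicate 7, and 0.892 to 0.929 for the other 14.

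No single gene passed the test between control and UCMS blood. Each difference is the UCMS mean minus the control mean (log2), tested with limma, which fits all genes together, with the lowest 10% of genes by mean level set aside. Of 7947 genes tested, 0 (0%) had an adjusted p under 0.05, and the smallest adjusted p in limma was 0.240. An exact permutation test and an exact Wilcoxon rank sum test of each gene also gave 0. With 7 and 9 libraries both exact tests have a smallest possible p. Palb2, whose groups did not overlap, reached it in the permutation test, at 8.74e-05. A gene alone at that floor cannot pass adjustment over 7947 genes, so these counts of 0 are not separate support. At an unadjusted p under 0.05 there were 859 genes (10.8%) with limma, 863 with the exact permutation test and 682 with the Wilcoxon test. Of the 859, 515 had a higher mean in UCMS (6.48% of genes tested) and 344 a lower one (4.33%); 5% of the genes tested is 397. These counts are the background for every gene group below, and no gene among them is a call. Genes share libraries and are not independent, so 859 beside 397 is not a test. Over all genes, 48.5% had a higher and 51.4% a lower mean in UCMS, with a median difference of -0.01 and a median standard error of 0.195.

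The split between higher and lower genes depended on the scale. With libraries centred on the median of ribosomal protein genes, 691 genes had an unadjusted p under 0.05, of which 154 were higher and 537 lower (22.3% higher, against 515 of 859 in the values as deposited), and the median of all genes was -0.07. Some lower genes also count more than once: 22 protocadherin gamma genes, whose transcripts share their last exons, were all lower at an unadjusted p under 0.05, and correlated over the 16 libraries at 0.997 or more.

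**Figure D1:**
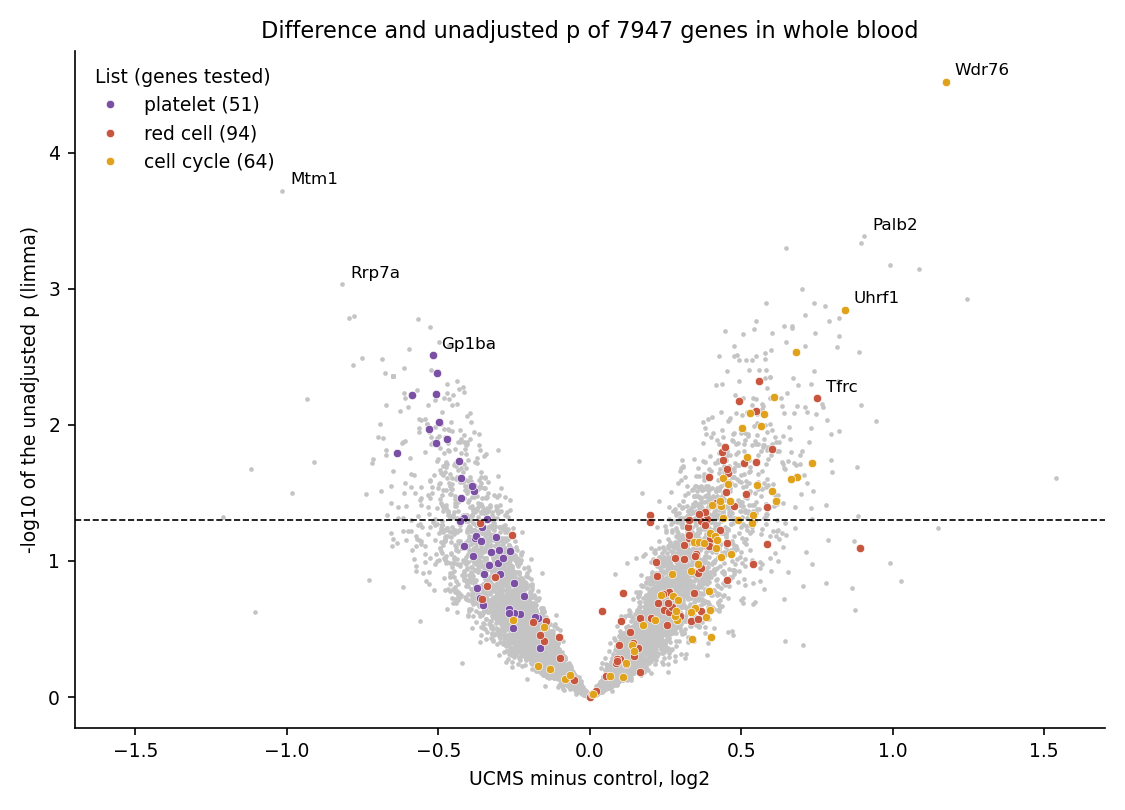
Difference between UCMS and control blood (log2, x axis) against -log10 of limma's unadjusted p (y axis), 1 point for each of 7947 genes, with platelet, red cell and cell cycle genes in colour and the 0.05 threshold as a dashed line. Platelet genes lie to the left (50 of 51 lower) and most red cell and cell cycle genes to the right (81 of 94 and 58 of 64 higher); 0 genes passed after adjustment.

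The gene with the smallest p was Wdr76 (Entrez 241627; GRCm38 chromosome 2, 121506723 to 121544860, plus strand), which encodes a WD-repeat protein and is commonly listed among S-phase genes. It lay at 1.46 to 2.57 in controls (median 1.77) and at 2.30 to 3.59 in UCMS (median 3.27). All UCMS libraries but replicate 2, at 2.30, lay above the highest control. The means were 1.96 ± 0.46 (SD, n = 7) in controls and 3.14 ± 0.38 (SD, n = 9) in UCMS, a difference of 1.18 (SE 0.222), or 2.26-fold, with an adjusted p of 0.240 in limma. Without UCMS replicate 2, Wdr76 passed, with a difference of 1.28 and an adjusted p of 0.0443 in limma; leaving out any other single library gave 0 genes.

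The next smallest adjusted p, 0.401 in limma, was shared by 89 genes. Mtm1 (chromosome X, 71210767 to 71315691, plus strand), which encodes myotubularin, a phosphatase of membrane phosphoinositides, lay at 2.67 to 4.03 in controls (median 3.34) and at 1.90 to 2.88 in UCMS (median 2.34). 5 of 7 controls lay above the highest UCMS library, and the difference was -1.02 (SE 0.225). Palb2 (chromosome 7, 122107262 to 122132985, minus strand), which encodes the partner and localizer of BRCA2 in DNA repair, lay at 1.26 to 2.57 in controls (median 2.17) and at 2.74 to 3.19 in UCMS (median 2.91), a difference of 0.91 (SE 0.216). Its groups did not overlap, which was so for 2 of the 7947 genes (0.0252%). The other was Gm14165, a gene model, at 5.30 to 5.78 in controls (median 5.59) and at 5.81 to 6.69 in UCMS (median 6.0); it is named because of that lack of overlap, after its values were seen.

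Other higher genes of small p had varied functions. E2f7, an atypical E2F repressor of the cell cycle, lay at 0.88 to 3.27 in controls (median 1.80) and at 2.41 to 4.06 in UCMS (median 3.03), and 4 of 9 UCMS libraries were above all controls. Fads3, of the fatty acid desaturase family, had a difference of 1.09 (SE 0.274). Emc8, a subunit of the endoplasmic reticulum membrane protein complex, had one of 0.65 (SE 0.157). Ugt8a, the enzyme that makes galactosylceramide, differed by 0.70 (SE 0.184), Net1, a RhoA exchange factor, by 0.74 (SE 0.199), and Gpld1, a phospholipase that cuts GPI anchors, by 0.58 (SE 0.156). In each of these 6 genes all 9 UCMS libraries were above the control median, and the groups overlapped.

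Lower genes of smallest p were as mixed. Rrp7a, a ribosomal RNA processing factor, lay at 3.94 to 5.24 in controls (median 4.14) and at 2.80 to 4.17 in UCMS (median 3.39), a difference of -0.82 (SE 0.212). Msl3, of the MSL chromatin complex, lay at 2.65 to 3.36 in controls (median 3.02) and at 1.26 to 2.83 in UCMS (median 2.33), and 8 of 9 UCMS libraries were below all controls. Actb, cytoplasmic actin and often used as a reference gene, lay at 10.1 to 10.6 in controls (median 10.4) and at 9.10 to 10.5 in UCMS (median 9.86), a difference of -0.53 (SE 0.149). In all 3 the groups overlapped. Irak4, the kinase downstream of Toll-like and interleukin-1 receptors, lay at 2.86 to 4.15 in controls (median 3.56) and at 1.93 to 3.45 in UCMS (median 2.91), and all 9 UCMS libraries were below the control median. Mcemp1, a membrane protein of mast cells and myeloid cells, had a difference of -0.50 (SE 0.145), and Marveld1, a MARVEL-domain membrane protein, one of -0.78 (SE 0.214).

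**Figure D2:**
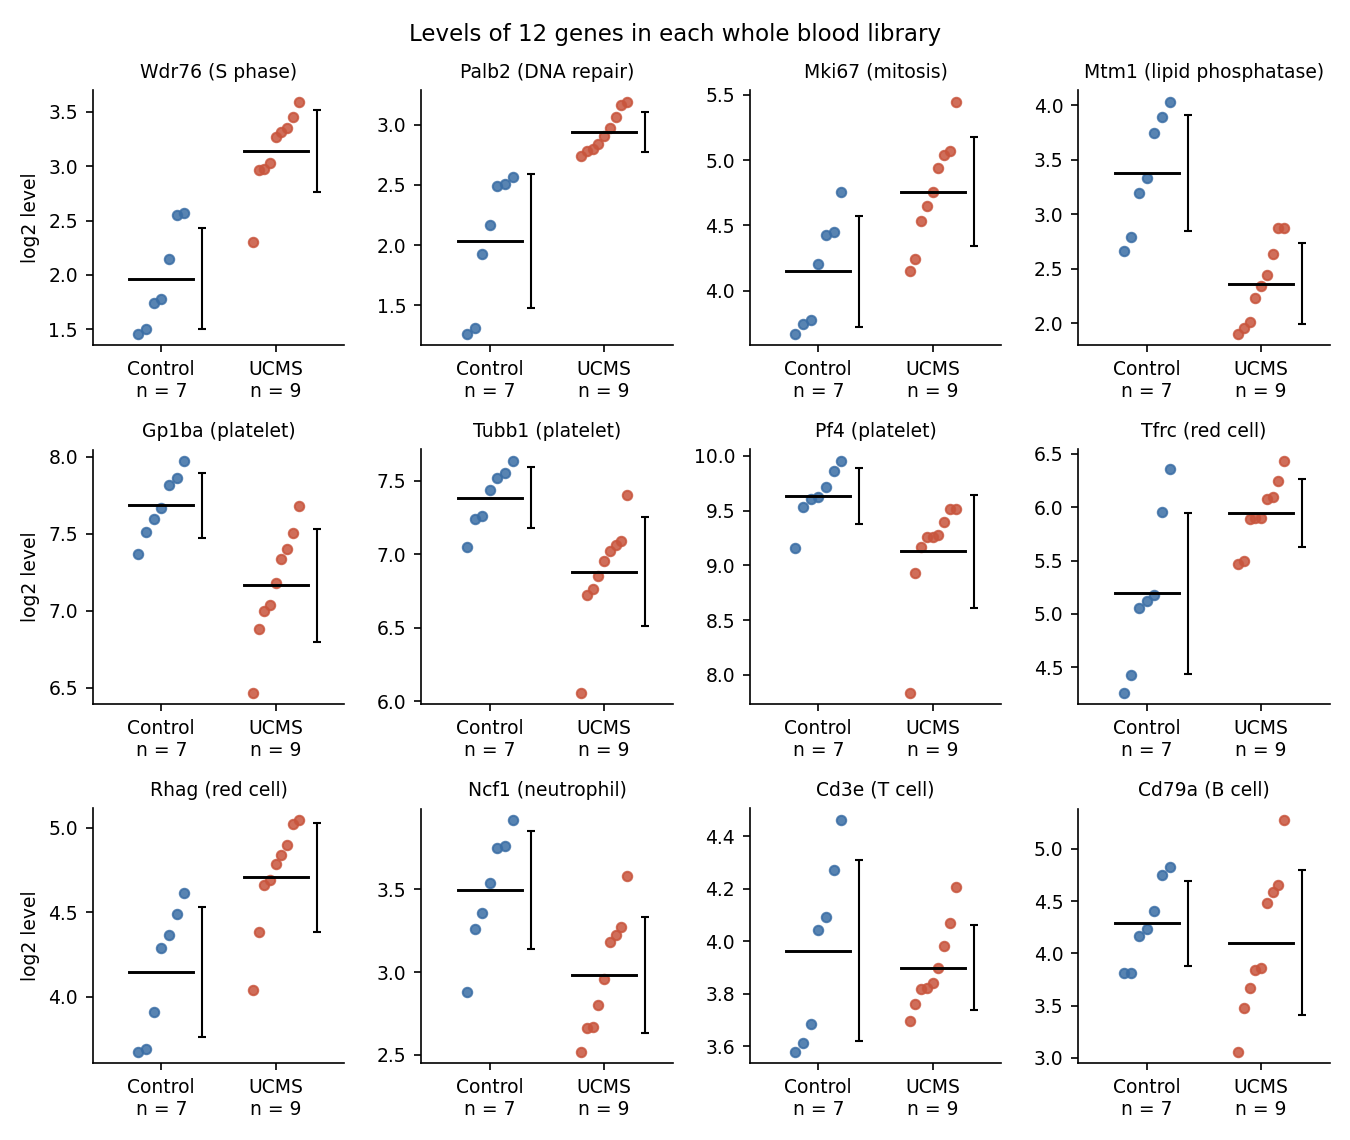
Log2 level (y axis) of 12 genes in each of 7 control and 9 UCMS blood libraries, 1 point per library, with the group mean and its standard deviation; the y axes differ between genes and do not start at 0. The groups do not overlap for Palb2 and overlap in the other 11 genes; for Cd79a the UCMS range encloses the control range.

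Platelet genes had a lower mean in UCMS blood in 50 of 51 members tested, with a median difference of -0.35, beside -0.01 over all genes. At an unadjusted p under 0.05, 17 of the 51 were lower and 1 higher, beside 4.33% and 6.48% of all genes, and 0 passed after adjustment (smallest adjusted p 0.401 in limma). This direction was known when the list was chosen, so it is not independent support. In bulk blood, fewer platelets, less RNA per platelet and more RNA of other cells cannot be told apart, since levels are relative within a library. A score is the mean, over the genes of a list, of levels scaled to each gene's own mean and spread. With the red cell score as a covariate, 49 of the 51 were lower, 5 at p under 0.05 (median -0.28). With the neutrophil score, 49 were lower, 1 at p under 0.05 (median -0.27). The mean deviation of the members from each gene's mean ran from -0.15 to 0.51 in controls (median 0.14) and from -0.97 to 0.34 in UCMS (median -0.09). The groups overlapped, with 8 of 9 UCMS libraries below the control median. The lowest library was UCMS replicate 7, which also had the highest mean deviation of red cell genes (0.49). Without control replicate 5, 9 members were lower at p under 0.05, and without UCMS replicate 3, 29. Without control replicate 2 and UCMS replicate 7 together, 49 were lower, 14 of them at p under 0.05, and the median was -0.21.

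Surface receptors were lower in 17 of 17 members (median -0.42), 9 of them at p under 0.05. The glycoprotein Ib-IX-V complex holds platelets to von Willebrand factor at damaged vessels. Gp1ba, its ligand-binding chain (Entrez 14723; chromosome 11, 70639122 to 70642036, plus strand), lay at 7.37 to 7.97 in controls (median 7.67) and at 6.47 to 7.68 in UCMS (median 7.18), a difference of -0.52 (SE 0.155), or 1.43-fold lower. Of the 9 UCMS libraries, 6 lay below all controls. The second chain, Gp1bb, lay at 5.84 to 7.04 in controls (median 6.17) and at 4.28 to 6.25 in UCMS (median 5.70), a difference of -0.64 (SE 0.243). Gp9 lay at 6.85 to 8.06 in controls (median 7.35) and at 5.80 to 7.33 in UCMS (median 7.03), a difference of -0.42 (SE 0.198), and Gp5 had a difference of -0.47 (SE 0.173). All 4 chains were thus lower in mean, and UCMS libraries overlapped with controls for each. Ptgir, the prostacyclin receptor, which restrains platelets, differed by -0.53 (SE 0.189). Itga2b, the integrin alpha chain of the fibrinogen receptor, differed by -0.34 (SE 0.161).

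Promoters of Gp1ba and Gp9 are shown as examples of chains of that complex whose promoters hold a word read by GATA factors; the windows of Gp1bb and Gp5 do not hold it. The sequences are from RefSeq (GRCm38.p6), the 150 bases before the start on the gene's strand, 5′ to 3′, at chr11:70638972-70639121 and chr6:87777920-87778069, both on the plus strand. Capitals mark that word, GATAAG; the motifs were chosen after sequences had been seen.
Gp1ba: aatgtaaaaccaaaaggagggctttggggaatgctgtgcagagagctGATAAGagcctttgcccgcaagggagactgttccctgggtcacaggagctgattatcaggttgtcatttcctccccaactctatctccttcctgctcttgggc
Gp9: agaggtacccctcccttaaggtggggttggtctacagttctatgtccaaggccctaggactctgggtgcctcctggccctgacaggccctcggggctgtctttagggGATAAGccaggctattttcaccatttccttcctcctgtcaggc
Over the 250 bases before the start, GATAAG or CTTATC, its other strand, stood in 4 of 14 windows of the receptor genes (28.6%) and in 6 of 45 windows of all platelet genes (13.3%). The share was 4.82% in windows of genes tested in blood, of which 5795 of 7947 had 1 or more, and 6.55% in all 32851 windows. A match describes the letters and is not a bound site.

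Granule contents were lower in 10 of 10 members (median -0.31, 2 at p under 0.05). Pf4, the chemokine platelet factor 4, lay at 9.16 to 9.95 in controls (median 9.62) and at 7.84 to 9.51 in UCMS (median 9.26), and all 9 UCMS libraries were below the control median. Nrgn, a calmodulin-binding protein known from neurons and also found in platelets, lay at 9.16 to 10.1 in controls (median 9.55) and at 7.79 to 9.64 in UCMS (median 9.01). Ppbp, the precursor of platelet basic protein, differed by -0.43 (SE 0.206), and Clu, clusterin, by -0.35 (SE 0.175). UCMS replicate 7 was the lowest library for all 4. Cytoskeletal, signalling and enzyme genes were lower in 18 of 18 members (median -0.32, 5 at p under 0.05). Tubb1, the beta-tubulin of the platelet's marginal band, lay at 7.05 to 7.63 in controls (median 7.44) and at 6.06 to 7.40 in UCMS (median 6.95), and all 9 UCMS libraries were below the control median. Alox12, the platelet 12-lipoxygenase, differed by -0.43 (SE 0.169), and Cavin2, a protein of caveolae, by -0.50 (SE 0.175).

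Megakaryocyte transcription factors were lower in 5 of 6 members. Fli1, an ETS factor of megakaryocytes, lay at 4.2 to 4.67 in controls (median 4.34) and at 3.13 to 4.43 in UCMS (median 4.07), a difference of -0.38 (SE 0.164). Nfe2, needed for platelet release, differed by -0.36 (SE 0.176). Zfpm1, which encodes FOG1, the partner of GATA1 in megakaryocytes and in red cell precursors, was the 1 platelet gene with a higher mean. It lay at 2.87 to 3.98 in controls (median 3.43) and at 3.44 to 4.61 in UCMS (median 3.92), and all 9 UCMS libraries were above the control median. Gata1 itself differed by -0.31 (SE 0.199).

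Of 94 red cell genes tested, 81 had a higher mean in UCMS, with a median difference of 0.30, beside 48.5% higher and -0.01 over all genes. At an unadjusted p under 0.05, 22 were higher and 0 lower, beside 6.48% and 4.33%, and 0 passed after adjustment (smallest adjusted p 0.403 in limma). This list, like all the others, was chosen with earlier results of these data known, so its direction is not independent support. The mean deviation ran from -0.60 to 0.15 in controls (median -0.06) and from -0.29 to 0.49 in UCMS (median 0.13). The groups overlapped, with control replicates 3 (-0.60) and 7 (-0.33) at the low end. Without control replicate 3, 9 members were higher at p under 0.05 and the median was 0.20. Without control replicate 7, UCMS replicate 4 or UCMS replicate 7, the counts were 13, 14 and 14, and without UCMS replicate 1, 38. Centred on ribosomal protein genes, 76 of 94 stayed higher in mean, 5 at p under 0.05.

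Of 7 globin genes tested, 6 had a higher mean in UCMS (median 0.20), 1 of them at p under 0.05, beside 6.48% of all genes. The levels of Hba-a1 and Hbb-bs carry little information in this table. A gene of the same rank in every library gets the same value when distributions are made equal, and 3 genes had 1 value in all 16 libraries. Hba-a1, adult alpha-globin, was 1 of them. Hbb-bs, adult beta-globin, stood at 1 value in all UCMS libraries and lower in 2 of 7 controls, so that its difference is set by ranks. Copies of a globin gene are also near identical and can share reads.

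Genes of heme synthesis and iron uptake were higher in 17 of 20 members (median 0.33, 6 at p under 0.05). Tfrc, the transferrin receptor that brings iron into red cell precursors (Entrez 22042; chromosome 16, 32608920 to 32632794, plus strand), lay at 4.26 to 6.36 in controls (median 5.12) and at 5.47 to 6.43 in UCMS (median 5.90), a difference of 0.75 (SE 0.248). All 9 UCMS libraries were above the control median, and 1 was above all controls. Alad, an enzyme of heme synthesis, lay at 2.76 to 3.61 in controls (median 3.07) and at 2.89 to 4.0 in UCMS (median 3.64), a difference of 0.45 (SE 0.168), and 8 of 9 UCMS libraries were above the control median. Alas2, the first and rate-limiting enzyme of the pathway in red cells, differed by 0.10 (SE 0.118).

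Genes of the red cell membrane and blood groups were higher in 25 of 26 members (median 0.36, 9 at p under 0.05). Rhag, the Rh-associated glycoprotein (chromosome 17, 40811126 to 40840754, plus strand), lay at 3.67 to 4.61 in controls (median 4.29) and at 4.04 to 5.05 in UCMS (median 4.78), a difference of 0.56 (SE 0.177), with 7 of 9 UCMS libraries above all controls. Rhd, its partner in the Rh complex, lay at 2.57 to 3.81 in controls (median 3.41) and at 3.25 to 4.14 in UCMS (median 3.81), a difference of 0.45 (SE 0.194). Both groups overlapped in each gene. Ermap, an erythroid membrane protein, differed by 0.60 (SE 0.227), and Cd59a, an inhibitor of complement, by 0.55 (SE 0.187). Slc4a1, the band 3 anion exchanger, differed by 0.27 (SE 0.214), with 4 of 9 UCMS libraries above the control median. The promoter of Rhd, which holds the same word, is shown beside those of the platelet genes, since GATA factors act in both lineages; it lies at chr4:134864386-134864535 on the plus strand (RefSeq, GRCm38.p6), with GATAAG in capitals.
Rhd: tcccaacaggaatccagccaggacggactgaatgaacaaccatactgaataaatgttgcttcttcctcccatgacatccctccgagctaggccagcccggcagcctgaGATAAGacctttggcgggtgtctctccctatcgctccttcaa
GATAAG or CTTATC stood in 17 of 98 windows of red cell genes (17.3%), beside the 4.82% of windows of genes tested.

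Genes of reticulocyte maturation, the clearing of organelles and proteins from young red cells, were higher in 23 of 26 members (median 0.24, 4 at p under 0.05). Ubac1, a subunit of a ubiquitin ligase, lay at 5.09 to 5.99 in controls (median 5.81) and at 5.78 to 6.86 in UCMS (median 6.21), with 8 of 9 UCMS libraries above all controls. Rnf123, a ubiquitin ligase, lay at 1.99 to 2.91 in controls (median 2.70) and at 2.64 to 3.84 in UCMS (median 3.04), and Fbxo7, an F-box protein, differed by 0.39 (SE 0.161). Control replicate 3 was the lowest control in all 3. Transcription factors and the erythropoietin receptor were higher in 10 of 15 members and lower in 5 (median 0.16, 2 higher at p under 0.05). Their differences ran from -0.36 to 0.51. Gata1 and Nfe2, given above with the megakaryocyte factors, had lower means in UCMS. Hemgn, an erythroid nuclear protein, lay at 3.71 to 4.95 in controls (median 4.41) and at 4.23 to 5.37 in UCMS (median 5.09).

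In UCMS, 58 cell cycle genes had a higher mean, of 64 tested, with a median difference of 0.40. At an unadjusted p under 0.05, 24 were higher and 0 lower, beside 6.48% and 4.33% of all genes; 0 passed after adjustment (smallest adjusted p 0.240 in limma, Wdr76). As with the platelet genes, the direction was known when the list was chosen. The mean deviation ran from -0.64 to 0.06 in controls (median -0.05) and from -0.29 to 0.53 in UCMS (median 0.18). The groups overlapped, and 6 of 9 UCMS libraries were above the control median. Control replicate 7 was lowest, at -0.64. Without control replicates 3 or 7, or UCMS replicates 2, 5 or 7, left out in turn, the counts at p under 0.05 were 14, 11, 15, 13 and 14. With the red cell score as a covariate, 50 of 64 cell cycle genes were higher, 3 at p under 0.05, with a median of 0.18. Which blood cells these transcripts came from was not tested.

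S-phase genes, which copy DNA, were higher in 15 of 17 members (median 0.42, 8 at p under 0.05). For their mean deviation, 9 of 9 UCMS libraries were above the control median. Uhrf1, which brings DNA methyltransferase to new DNA, lay at 1.46 to 3.20 in controls (median 2.32) and at 2.58 to 3.72 in UCMS (median 3.29), a difference of 0.84 (SE 0.229). Dnmt1, that methyltransferase, lay at 2.08 to 3.07 in controls (median 2.55) and at 2.75 to 4.10 in UCMS (median 3.12), a difference of 0.58 (SE 0.198). In both genes all 9 UCMS libraries were above the control median, and 5 were above all controls. Cdc6, which helps load the replicative helicase, differed by 0.56 (SE 0.2), and Pola1, the catalytic subunit of DNA polymerase alpha, by 0.46 (SE 0.207). Pcna, the sliding clamp, differed by 0.22 (SE 0.191).

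Mitosis genes were higher in 43 of 47 members (median 0.39, 16 at p under 0.05). Mki67, which encodes the proliferation marker Ki-67 (Entrez 17345; chromosome 7, 135689784 to 135716361, minus strand), lay at 3.67 to 4.75 in controls (median 4.21) and at 4.15 to 5.44 in UCMS (median 4.76), a difference of 0.61 (SE 0.201), or 1.53-fold, with 5 of 9 UCMS libraries above all controls. Tpx2, a spindle assembly factor, lay at 2.96 to 4.11 in controls (median 3.53) and at 3.68 to 4.74 in UCMS (median 4.41), with 6 of 9 above all controls. Cenpf, of the kinetochore, lay at 2.74 to 3.94 in controls (median 3.49) and at 3.56 to 4.30 in UCMS (median 4.05). All 9 UCMS libraries were above the control median for Tpx2 and Cenpf, and the groups overlapped. Prc1, which bundles the central spindle, differed by 0.50 (SE 0.178), and Top2a, the topoisomerase that untangles chromosomes, by 0.46 (SE 0.192).

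Promoters of Mki67, Top2a and Pola1 are shown as examples that hold short words for which cell cycle promoters are known: CCAAT, read by NF-Y; TTTGAA, the CHR element; and TTTNNCGC, read by E2F factors. They are the 150 bases before the start (RefSeq, GRCm38.p6) at chr7:135716380-135716529, chr11:99024190-99024339 and chrX:93632156-93632305, all on the minus strand. Capitals mark CCAAT and TTTGAA on either strand in Mki67 and Top2a, and TTTNNCGC and CCAAT on either strand in Pola1.
Mki67: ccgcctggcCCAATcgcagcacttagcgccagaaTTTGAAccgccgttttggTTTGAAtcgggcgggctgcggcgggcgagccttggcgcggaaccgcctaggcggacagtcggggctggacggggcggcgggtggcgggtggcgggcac
Top2a: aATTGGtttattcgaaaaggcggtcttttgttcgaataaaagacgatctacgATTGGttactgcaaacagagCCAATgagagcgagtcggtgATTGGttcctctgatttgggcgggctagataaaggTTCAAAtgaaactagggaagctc
Pola1: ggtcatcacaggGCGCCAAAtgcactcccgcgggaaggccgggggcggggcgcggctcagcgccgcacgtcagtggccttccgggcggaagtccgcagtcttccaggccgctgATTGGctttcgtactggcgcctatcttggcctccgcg
In the 250 bases before the start, TTTGAA or TTCAAA stood in 19 of 41 windows of mitosis genes (46.3%), beside 11.1% of windows of genes tested and 16% of all windows. CCAAT or ATTGG stood in 31 of 41 windows (75.6%), beside 35.1% and 33.8%. TTTNNCGC or GCGNNAAA stood in 7 of 21 windows of S-phase genes (33.3%), beside 7.02% and 4.28%. These shares belong to the lists as fixed and were not compared between members that differed more or less.

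**Figure D3:**
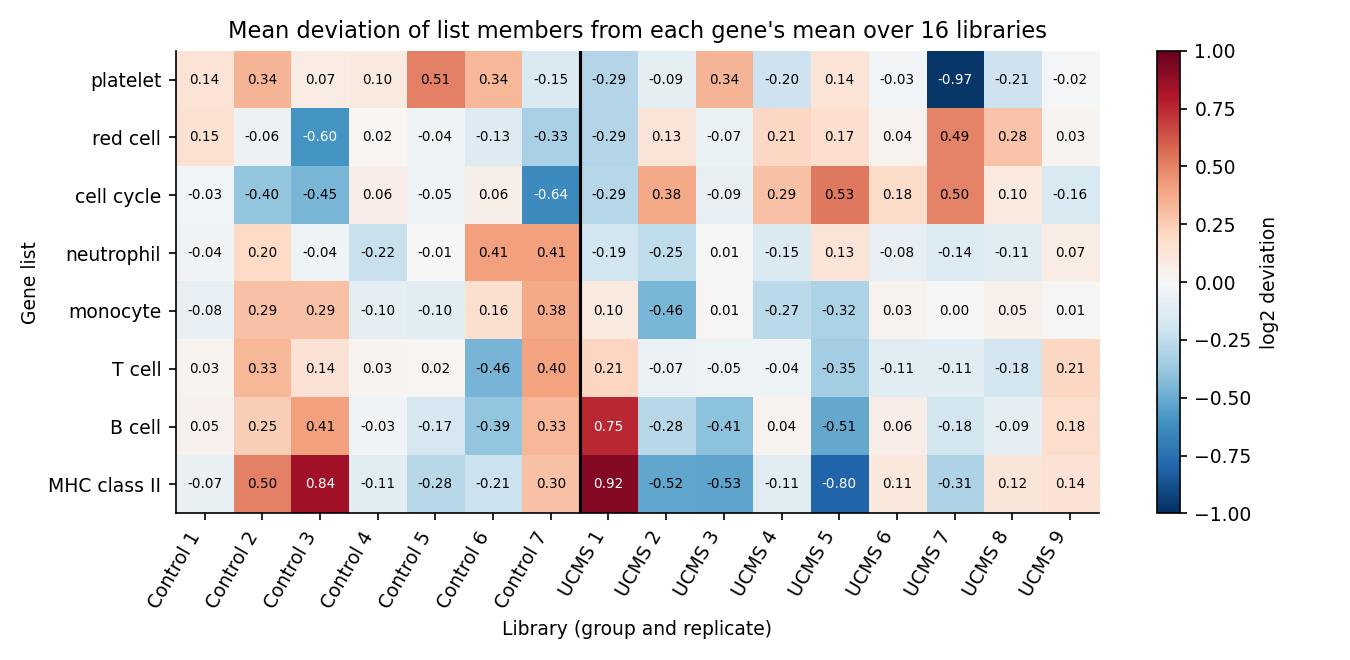
Mean deviation (log2, colour and number) of the members of 8 gene lists (rows) from each gene's mean over 16 libraries, in 7 control and 9 UCMS libraries (columns). The platelet list reaches -0.97 in UCMS replicate 7 and the red cell list -0.60 in control replicate 3, and the groups overlap in every list shown.

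Neutrophil genes had a lower mean in UCMS in 54 of 64 members (median -0.19). At p under 0.05, beside 4.33% of all genes lower and 6.48% higher, 7 of the neutrophil genes were lower and 0 higher. Their mean deviation ran from -0.22 to 0.41 in controls and from -0.25 to 0.13 in UCMS, and the groups overlapped. Without control replicate 7 the median was -0.11; without UCMS replicate 2, 4 members were lower at p under 0.05, and without UCMS replicate 9, 11. Ncf1, a subunit of the oxidase that makes superoxide, lay at 2.88 to 3.92 in controls (median 3.54) and at 2.52 to 3.58 in UCMS (median 2.96), a difference of -0.51 (SE 0.182). Alox5ap, needed for leukotriene synthesis, lay at 5.04 to 6.01 in controls (median 5.65) and at 4.18 to 5.47 in UCMS (median 5.20), and Ltb4r1, the leukotriene B4 receptor, lay at 1.72 to 3.91 in controls (median 2.97) and at 1.29 to 2.82 in UCMS (median 2.35). For both leukotriene genes, all 9 UCMS libraries were below the control median. Of the genes fixed as neutrophil markers, S100a8 and S100a9, the calprotectin subunits, differed by -0.14 (SE 0.224) and -0.22 (SE 0.226), and Cxcr2, a chemokine receptor, by -0.34 (SE 0.183).

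Monocyte genes were lower in 26 of 32 members (median -0.20), with 5 lower and 0 higher at p under 0.05. All 9 UCMS libraries were below the control median of the list, although the ranges overlapped, at -0.10 to 0.38 in controls and -0.46 to 0.10 in UCMS. Genes of classical, inflammatory monocytes were lower in 19 of 20 and those of nonclassical, patrolling ones in 7 of 12. At p under 0.05, 2 of the 20 and 3 of the 12 were lower, beside 4.33% of all genes. Without control replicate 3, control replicate 5 or UCMS replicate 5, the counts at p under 0.05 were 2, 3 and 3. Ccl9, a chemokine, lay at 2.62 to 5.28 in controls (median 3.35) and at 1.28 to 3.69 in UCMS (median 2.32), a difference of -0.91 (SE 0.357). Ccr2, the chemokine receptor of classical monocytes, differed by -0.39 (SE 0.287), and Csf1r, the growth factor receptor of the lineage, by -0.40 (SE 0.271). Cx3cr1, the receptor that marks nonclassical monocytes, differed by 0.10 (SE 0.238). Of the 5 at p under 0.05, Cd9 is also in the platelet list.

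Lists of T and B cell genes also had negative medians. T cell genes were lower in 42 of 49 members (median -0.12). At p under 0.05, 1 was lower, beside 4.33% of all genes. It was Satb1, a chromatin organiser, which differed by -0.36 (SE 0.164). Cd3e, of the T cell receptor complex, lay at 3.58 to 4.46 in controls (median 4.04) and at 3.70 to 4.21 in UCMS (median 3.84), a difference of -0.06 (SE 0.147). Cd8a, of cytotoxic T cells, differed by -0.27 (SE 0.294). The T cell median was -0.05 without control replicate 7 and -0.21 without control replicate 6. B cell genes were lower in 51 of 63 members (median -0.13). At p under 0.05, 1 was lower, beside the same 4.33%. It was Rasgrp3, an activator of Ras, which differed by -0.45 (SE 0.196). Cd79a, of the B cell receptor, lay at 3.81 to 4.82 in controls (median 4.24) and at 3.06 to 5.27 in UCMS (median 3.86), so the UCMS range enclosed that of controls. Without UCMS replicate 1 the B cell median was -0.26, and without UCMS replicate 5 it was -0.07. With the red cell score as a covariate the direction turned, with 42 of 63 higher (median 0.06). Natural killer and cytotoxic genes were lower in 11 of 14 and dendritic cell genes in 9 of 11, with 0 and 1 at p under 0.05.

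Genes of antigen presentation spread widely between animals of 1 group. MHC class II genes were lower in 11 of 11 members (median -0.20), with 0 at p under 0.05. Their mean deviation ran from -0.28 to 0.84 in controls and from -0.80 to 0.92 in UCMS. UCMS replicate 1 and control replicate 3 were the highest libraries of their groups both here and in B cell genes, and without each the median was -0.34 and -0.13. With the red cell score as a covariate, 8 of the 11 were higher (median 0.07). Cd74, the invariant chain of class II, differed by -0.28 (SE 0.254). MHC class I genes were lower in 13 of 19 (median -0.07), and the median was -0.0037 without control replicate 2 and -0.12 without control replicate 6. B2m, their shared light chain, lay at 8.23 to 8.77 in controls (median 8.34) and at 6.98 to 8.47 in UCMS (median 8.14), a difference of -0.44 (SE 0.167), and UCMS replicate 7 was the lowest.

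**Figure D4:**
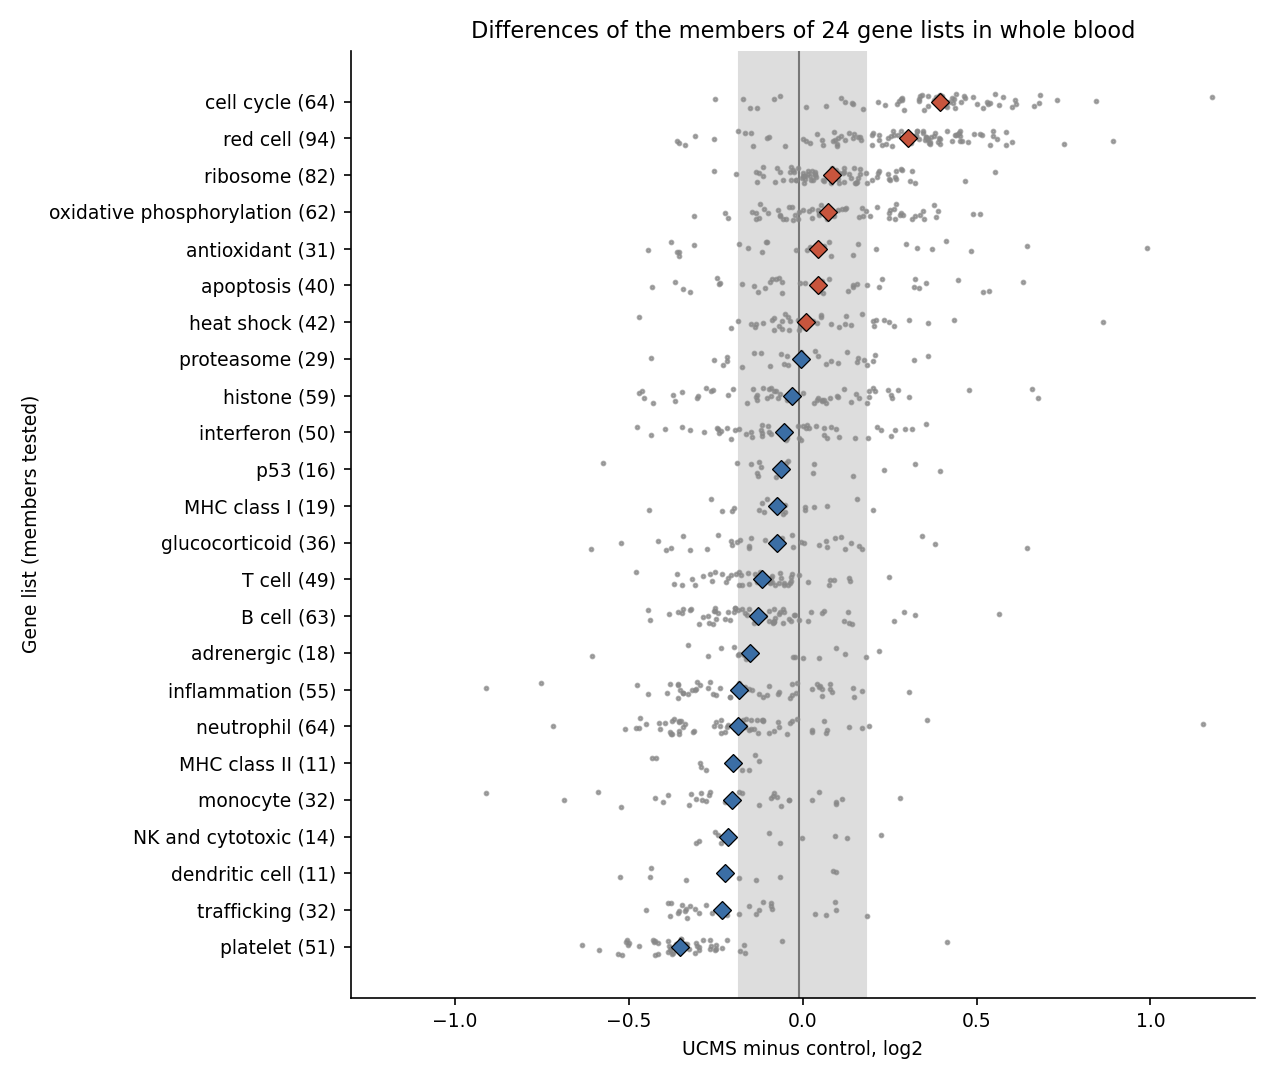
Difference between UCMS and control blood (log2, x axis) of each tested member (points) of the gene lists (rows), with the list median as a diamond the median of all genes tested as a line and their interquartile range as a grey band; red diamonds are medians above 0 and blue ones below. Among the lists drawn, platelet genes have the lowest median (-0.35) and cell cycle genes the highest (0.40), followed by red cell genes (0.30).

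Genes tied to the stress hormones had negative medians. Corticosterone acts through the glucocorticoid receptor, encoded by Nr3c1, which switches on genes such as Fkbp5 and Tsc22d3. Glucocorticoid genes were lower in 23 of 36 members (median -0.07). At p under 0.05, 3 were lower and 0 higher, beside 4.33% and 6.48% of all genes. The list median was -0.0088 without control replicate 2 and -0.13 without control replicate 6. Nr3c1 lay at 3.66 to 4.27 in controls (median 3.97) and at 3.47 to 4.15 in UCMS (median 3.73), a difference of -0.24 (SE 0.131), and 8 of 9 UCMS libraries were below the control median. Fkbp5, a co-chaperone that restrains the receptor, lay at 1.66 to 3.95 in controls (median 3.44) and at 2.36 to 3.79 in UCMS (median 3.20), a difference of 0.05 (SE 0.276), whose direction turned when libraries were centred on ribosomal protein genes. Tsc22d3, which encodes GILZ, lay at 3.96 to 4.78 in controls (median 4.41) and at 3.46 to 4.76 in UCMS (median 4.35), a difference of -0.06 (SE 0.179). The groups overlapped for Fkbp5 and Tsc22d3. Sgk1, a kinase induced by corticosteroids, differed by 0.38 (SE 0.249), and Dusp1, a MAP kinase phosphatase, by -0.32 (SE 0.239). The 3 at p under 0.05 were Nfil3, a transcription factor, which lay at 2.91 to 3.96 in controls (median 3.15) and at 2.01 to 3.31 in UCMS (median 2.62), Ccnd3, cyclin D3, with a difference of -0.38 (SE 0.148), and Cebpb, a factor of myeloid cells, with one of -0.52 (SE 0.227). Genes of adrenergic receptors and cyclic AMP signalling were lower in 12 of 18 members (median -0.15, and -0.09 without control replicate 2). Among them, Adcy9, an adenylyl cyclase, differed by -0.61 (SE 0.275).

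Inflammatory genes were lower in 42 of 55 members (median -0.18). At p under 0.05, 4 were lower and 0 higher, beside 4.33% and 6.48% of all genes. Leaving out single libraries gave 2 (without control replicate 3) to 8 (without control replicate 6) lower at that p. Il1b, the cytokine interleukin-1 beta, lay at 4.18 to 4.84 in controls (median 4.30) and at 3.70 to 4.89 in UCMS (median 4.16), a difference of -0.17 (SE 0.175). Tnf was among the 10% of genes with the lowest mean and was not tested. Tnfsf14, the cytokine LIGHT, lay at 4.32 to 5.15 in controls (median 4.63) and at 3.57 to 4.70 in UCMS (median 4.24), and Tlr6, a receptor for bacterial lipopeptides, differed by -0.39 (SE 0.177). Genes of adhesion and trafficking were lower in 27 of 32 (median -0.23), 3 of them at p under 0.05; leaving out single libraries gave 0 (without UCMS replicate 4) to 8 (without UCMS replicate 9). The 3 were Cd44, the hyaluronan receptor, Pecam1, which acts in crossing the vessel wall, and Itgb2, the shared chain of leukocyte integrins, with differences of -0.36 (SE 0.151), -0.34 (SE 0.155) and -0.31 (SE 0.143). Interferon-stimulated genes were lower in 30 of 50 (median -0.05, 1 at p under 0.05, beside the same 4.33%).

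Apoptosis genes, named in the title of the series, were nearly even, with 22 of 40 higher (median 0.04, and -0.02 centred on ribosomal protein genes). At p under 0.05, 4 were higher and 1 lower, beside 6.48% and 4.33% of all genes. The 4 higher genes act on both sides of the pathway. Bcl2l11, which encodes the pro-apoptotic protein BIM, lay at 3.49 to 4.08 in controls (median 3.75) and at 3.82 to 4.91 in UCMS (median 4.25), with 6 of 9 UCMS libraries above all controls. Casp9, the initiator caspase of the mitochondrial route, differed by 0.45 (SE 0.188). Bag1, an anti-apoptotic partner of BCL2, lay at 5.05 to 5.90 in controls (median 5.78) and at 5.79 to 6.72 in UCMS (median 6.15), with 7 of 9 above all controls. Bag4, of the same family, differed by 0.63 (SE 0.213). The lower gene was Bid, which links death receptors to mitochondria, with a difference of -0.43 (SE 0.195). Bcl2 differed by 0.16 (SE 0.168), and Bax, among the 10% lowest genes, was not tested. Genes of the p53 response were higher in 6 of 16 (median -0.06, 0 higher and 0 lower at p under 0.05).

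Ribosomal protein genes were higher in 61 of 82 members by small amounts (median 0.08). At p under 0.05, 4 were higher and 0 lower, beside 6.48% and 4.33% of all genes. On the scale centred on ribosomal protein genes, their higher direction is removed by construction. Rps2 lay at 4.25 to 4.51 in controls (median 4.48) and at 4.49 to 5.12 in UCMS (median 4.72), with 8 of 9 UCMS libraries above all controls, and Rpl41 differed by 0.47 (SE 0.188). Processed copies of these genes can share reads with them. Genes of oxidative phosphorylation were higher in 41 of 62 (median 0.07, 6 at p under 0.05, beside the same 6.48%). Cox8a and Cox6c, subunits of cytochrome c oxidase, differed by 0.38 (SE 0.139) and 0.51 (SE 0.19).

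Blood was then set against the brain of the same animals, to see whether the effect of treatment differed between them. In 15 animals with blood and all 3 brain regions (7 control, 8 UCMS), the mean brain level was subtracted from the blood level of each animal, and the result was compared between groups with limma over 6533 genes. Of these, 0 (0%) passed (smallest adjusted p 0.473 in limma), and 637 (9.75%) had an unadjusted p under 0.05. The UCMS minus control difference was higher in blood than in brain in 402 of them (6.15%) and lower in 235 (3.6%). The smallest p was that of Marveld1, whose UCMS minus control differences were -0.82 in blood and 0.05 in brain. For Rrp7a they were -0.90 in blood and 0.02 in brain, for Tmem80, a transmembrane protein, 0.89 in blood and 0.05 in brain, and for Cd59a 0.59 in blood and -0.27 in brain. Marveld1, Rrp7a and Tmem80 were also among the genes of smallest p in blood alone. The same blood values enter both tests, so these differences are not separate support. Lists in this comparison were likewise chosen with earlier results of these data known. The 65 red cell genes tested had medians of 0.24 in blood and -0.01 in brain. The difference was higher in blood for 8 of them at p under 0.05. Among the 65 genes, blood minus brain had an SE of 1.71 for Hbb-bs and 1.58 for Hba-a1. How much of the red cell RNA in brain libraries came from blood in the tissue was not tested. For 17 cell cycle genes the medians were 0.25 and -0.03, with 4 higher in blood at p under 0.05. The 17 platelet genes had medians of -0.34 and -0.0013, with 1 lower in blood at that p. Glucocorticoid genes, 35 in all, had -0.07 and 0.03, with 3 lower in blood at that p.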

How the data were processed

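RNA was sequenced from whole blood of 7 control and 9 UCMS mice, grouped by the labels. The authors deposited 1 table for blood, with Entrez numbers and symbols (50 of 8830 rows had no symbol), whose values were read as log2 levels with 1 shared distribution. The log2 base and this scaling were inferred from the deposited values, which ran from 0.035 to 19.784 and were equal within 0.002 over all 16 libraries at 72.39% of ranks. Per the submitters' processing notes, GRCm38.p4 is the build named. Which aligner, counter, annotation and strand setting produced the table is not given in the sources used here. All 16 columns matched a sample, leaving 0 unmapped. Depth is unknown, so no counting interval is given, and the number of libraries limits the precision.

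limma 3.58.1 in R 4.3.3 was run on the values as deposited, two-sided, with a trended prior variance, no covariate and Benjamini-Hochberg adjustment at 0.05, on the genes left once the lowest 10% by mean level were set aside; the code was tested on simulated data. Blood was compared with brain through within-animal differences, linked by the animal numbers in the titles. Gene lists (30, with 1478 symbols, 1063 of them found in the table) are described by counts and medians, without a test. The members and lists were chosen with earlier results of these data known. The rule for named genes took those past the threshold, the 10 higher and 10 lower genes with the smallest p, leaving out gene models, the 3 members of each list with the smallest p under 0.05, cell type markers and fixed stress genes; the text gives a selection, and some items are not reported here. Gp5, Ppbp, Clu, Nfe2, Gata1, Cdc6, Prc1, Pcna, Cd74, Hist3h2ba, Hist1h1b, Gp9, Rhd, Pola1, Chil3 and Gm14165 were added once their values had been seen. Gene positions are those of GENCODE M21 (GRCm38), and promoters are from RefSeq (GRCm38.p6). Alternatives were other filters, priors, weights, centrings, tests, covariates, left-out libraries and a replicate block. Python 3.11.15, numpy 2.4.6, pandas 2.3.3 and matplotlib 3.10.9 were used.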

Additional observations from a re-analysis of the deposited data

Results flagged for a closer look

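In groups of 7 or 9 libraries, a value was singled out where its gap to the nearest other library was large for the range of its group, by Dixon's criterion. Of 296 groups examined over the genes and lists, 30 had such a value, and chance gives about 1 in 20, or 15; genes share libraries, so these are not independent.

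UCMS replicate 7 held 14 of them. It was the lowest UCMS library for the platelet list (-0.97) and for Pf4 (7.84), Tubb1 (6.06), Nrgn (7.79), Ppbp (7.06), Clu (5.59), Fli1 (3.13), Gp9 (5.80) and Cd9 (7.40), all members of that list. It was also the lowest for Alox5ap (4.18), B2m (6.98), Tsc22d3 (3.46) and Bid (2.32), and the highest for Dnmt1 (4.10). Without this library and control replicate 2, platelet genes kept a negative median, -0.21.

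Control replicate 3 was the lowest control for Ubac1 (5.09), Rnf123 (1.99) and Fbxo7 (3.57), genes of reticulocyte maturation, and the highest for Sox4 (4.84) and the list of nuclear noncoding RNA (0.42). Control replicate 2 was the highest control for Rrp7a (5.24), Tnfsf14 (5.15), Cd44 (5.39) and Itgb2 (5.17), and the lowest for Bag4 (2.23). UCMS replicate 1 was the lowest UCMS library for Alad (2.89) and Ermap (3.40), both red cell genes. Single values stood apart in UCMS replicate 2 for Wdr76 (2.30), in UCMS replicate 5 for the histone list (0.41), in control replicate 6 for Chil3 (5.43) and in control replicate 7 for the list of oxidative phosphorylation (-0.42).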

How the results depend on the processing

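The count of genes past the adjusted threshold was 0 under each alternative run in limma and by the exact tests, except without UCMS replicate 2, so that leaving out 1 library gave 0 to 1. The exact tests could hardly give another count, since their smallest possible p does not pass adjustment for a gene alone. Genes at an unadjusted p under 0.05 numbered 600 to 1057 with 1 library left out, 605 without control replicate 2 and UCMS replicate 7, 362 with the red cell score and 306 with the neutrophil score as a covariate, beside 859. The scores were computed from the same libraries; the cause of each change was not tested. With array weights the split was 386 higher and 375 lower, without control replicate 3 306 and 317, and without control replicate 7 340 and 389.

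Counts of members at p under 0.05 moved by more than 1.5 times in these cases among others, beside the single libraries named in the report. Lower T cell genes, 1 as reported, ran from 0 with array weights to 5 centred on ribosomal protein genes or without control replicate 6. Lower B cell genes, also 1, ran from 0 with either score to 4 without UCMS replicate 1. Lower platelet genes numbered 5 with the red cell and 1 with the neutrophil score, beside 17. Lower neutrophil genes numbered 3 with the red cell score, 0 with their own and 4 with array weights, beside 7. Higher cell cycle genes numbered 6 with the neutrophil score, 9 centred on ribosomal protein genes, 13 with array weights, 15 by Wilcoxon test and 15 with the joint omission, beside 24 of 64 tested. They numbered 11 with the lowest 50% of genes left out, where only 31 were tested. Higher red cell genes numbered 0 with their own score, 3 with the neutrophil score and 14 by Wilcoxon test, beside 22. Lower monocyte genes numbered 0 with the red cell score and 2 with the neutrophil score or by Wilcoxon test, beside 5 of 32 tested. They numbered 2 with the lowest 50% left out, where only 16 were tested. With either score, lower genes numbered 1 for trafficking and for glucocorticoid genes (beside 3 each) and 2 for inflammation (beside 4), and centred on ribosomal protein genes 6, 5 and 7. Lower histone genes numbered 5 with the red cell and 4 with the neutrophil score, beside 8. Higher oxidative phosphorylation genes numbered 0 with the red cell score, 1 with the neutrophil score or that centring and 3 without UCMS replicate 4, beside 6. Higher ribosome genes, 4 as reported, ran from 0 with that centring to 10 with the joint omission. Higher heat shock and lower antioxidant genes, 3 each, numbered as few as 1 and 0, both without UCMS replicate 7 among other settings. The joint omission was chosen after seeing the data.

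Of 870 list medians under alternatives, 859 moved by less than the spread between libraries, while 77 changed sign, in 14 of 29 lists. That spread was wider than the median itself in lists such as B cell genes. A median can thus turn sign and still count among the 859. With the red cell score as a covariate the medians were 0.0102 for red cell, -0.0312 for dendritic cell and 0.0193 for nuclear noncoding RNA genes, and turned to 0.0569 for B cell and 0.0725 for MHC class II genes. With the neutrophil score they were 0.0186 for glucocorticoid, 0.0222 for neutrophil and -0.0129 for adrenergic genes. The apoptosis median was -0.0252 with no filter, 0.145 with the lowest 50% left out and -0.0298 to 0.0600 with 1 library left out. Without control replicate 7 the medians were -0.00756 for interferon, 0.0434 for oxidative phosphorylation, -0.109 for natural killer and -0.148 for dendritic cell genes. Genes of p53 had -0.0294 without UCMS replicate 1, and ribosome genes 0.0513 without control replicate 5. The proteasome median was 0.14 with the lowest 50% left out, and that of small nucleolar RNA hosts 0.18 with the lowest 25% or 50% left out; fewer members were tested there.

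Of 3700 values of 117 genes, 28 changed direction, in 12 genes. With the red cell score these were Slc4a1 (-0.121), Alas2 (-0.0284), Cd3e (0.0109), Cd8a (0.0816), Cd79a (0.131), Cd74 (0.0517) and Tsc22d3 (0.103). With the neutrophil score they were S100a8 (0.114), S100a9 (0.171), Il1b (0.0898), Cd3e (0.0178) and Tsc22d3 (0.0225), and with array weights Cd3e (0.0242) and Tsc22d3 (0.0453). Fkbp5 was -0.0138 centred on ribosomal protein genes, -0.0064 without the BS animals and in the replicate block, and -0.0287 without the UCMS animal sampled in blood only. With 1 library, or both named ones, left out, Fkbp5 ran from -0.201 to 0.284, Tsc22d3 from -0.135 to 0.113, Cd3e from -0.128 to 0.0191 and Cx3cr1 from -0.0787 to 0.202.

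Replicate numbers did not pair control and UCMS libraries: correlations of same-numbered libraries ran from -0.258 to 0.25, and 1 of 7 numbers correlated best with its own. With the replicate block, 857 genes in blood and 730 for blood against brain (beside 637) had p under 0.05, and 0 passed. For blood against brain, leaving out 1 animal gave 470 to 795. Sequencing depth is unknown, and which low genes it limits cannot be seen from these levels.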

Other observations

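Gene groups outside the main comparisons were of mixed direction. Histone genes were higher in 28 and lower in 31 of 59 members (median -0.03). At an unadjusted p under 0.05, 2 were higher and 8 lower, beside 6.48% and 4.33% of all genes. Hist1h4m, Hist1h4i and Hist1h4n, near-identical copies of the histone H4 gene whose reads cannot be assigned with certainty, differed by -0.46 (SE 0.135), -0.47 (SE 0.15) and -0.43 (SE 0.139), and all 9 UCMS libraries were below the control median in each. Hist1h1b, a linker histone, differed by 0.68 (SE 0.266), and Hist3h2ba by 0.66 (SE 0.234). The histone median changed sign between settings: it ran from -0.13 without control replicate 7 to 0.20 without control replicate 3, and was 0.09 with array weights.

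Chaperone and heat shock genes were higher in 22 of 42 members, 3 of them at p under 0.05, beside 6.48% of all genes. The list median turned from 0.01 to -0.05 when libraries were centred on ribosomal protein genes. Dnajb11, a chaperone of the endoplasmic reticulum, lay at 2.38 to 3.02 in controls (median 2.60) and at 2.84 to 3.40 in UCMS (median 3.17). All 9 UCMS libraries were above its control median. Antioxidant genes were higher in 19 of 31, and the same centring turned their median from 0.05 to -0.01. At p under 0.05, 1 was higher and 3 lower, beside 6.48% and 4.33% of all genes. Gsr, glutathione reductase, differed by -0.35 (SE 0.157), and Srxn1, sulfiredoxin, by -0.45 (SE 0.2). Circadian clock genes were higher in 6 of 10, with a median of 0.03 that turned to -0.03 on that scale; Tef, an output factor of the clock, differed by -0.40 (SE 0.191). Sox4, a transcription factor of progenitors and lymphocytes, lay at 2.92 to 4.84 in controls (median 3.38) and at 2.21 to 3.17 in UCMS (median 2.85), and all 9 UCMS libraries were below the control median. Snhg8, a host gene of a small nucleolar RNA, lay at 2.87 to 3.43 in controls (median 3.16) and at 2.75 to 4.41 in UCMS (median 3.79), with 8 of 9 UCMS libraries above all controls and 1 below all of them.

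Chil3, a chitinase-like protein of myeloid cells, lay at 1.06 to 5.43 in controls (median 1.99) and at 1.48 to 5.52 in UCMS (median 3.85), a difference of 1.15 (SE 0.571), and 8 of 9 UCMS libraries were above the control median. It was picked after its values were seen.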
